A study of Mus musculus with 4 samples.

Results

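The integrins and the core proteins of focal adhesions were followed as a set of 34 genes, namely 11 integrin alpha chains, 5 integrin beta chains and 18 cytoplasmic adhesion proteins. Members were taken by symbol, after the version suffix of each Ensembl identifier was removed and the identifier matched to the mouse annotation, and each of the 34 matched 1 of the 55357 identifiers counted. Of the 34 genes, 33 passed the filter on low counts and were tested with 17422 genes in all. The remaining one, Fermt1, which encodes kindlin-1 of epithelia, had only 2 and 4 input counts and 10 and 2 RIP counts and was not tested. The RNA came from C57BL/6 mice aged 7 days, as a mixture of testis cells. These had been exposed to 200 mJ per square cm of ultraviolet light at 254 nm, which crosslinks RNA to protein, then lysed. The 2 RIP libraries held RNA immunoprecipitated with an antibody to DDX20, a DEAD-box RNA helicase of the SMN complex that assembles spliceosomal particles. The 2 input libraries held 10% of the total RNA, with no antibody, and both groups share strain, age and crosslinking. A precipitation with an unrelated antibody was not used here, so every value below compares the precipitate with input alone. The catalogue numbers given for the 2 RIP libraries differ in 1 character. The labels do not say whether the 2 libraries of a group came from separate animals or cell preparations, so the p-values measure only the spread between these libraries, which may be technical.

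Integrins are cell surface receptors made of 1 alpha and 1 beta chain, and they hold cells to the extracellular matrix. Talin and kindlin bind the tail of the beta chain and switch the receptor on, vinculin and alpha-actinin tie it to actin filaments, and focal adhesion kinase, paxillin and p130Cas pass the signal on. A second link to actin is the complex of integrin-linked kinase, PINCH and parvin. In the testis, laminin-binding integrins hold Sertoli cells and spermatogonia to the basement membrane of the tubule, and the alpha-6 and beta-1 chains are used as surface markers of spermatogonial stem cells.

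The input libraries held 21913977 and 21416567 counts in all, fewer than the RIP libraries with 38458014 and 37927689. Marker genes were read beside the labelled cell type: 10 of 10 Sertoli cell genes and 12 of 12 spermatogonial genes passed the filter on low counts. So did all 7 Leydig cell, all 9 peritubular and stromal and all 7 endothelial genes. Passing therefore does not single out a cell type. Summed over the 10 Sertoli genes, levels were 3503 and 3473 CPM (counts scaled to a common library size, with TMM, the trimmed mean of M values, between libraries) in the input and 2176 and 2170.4 CPM in the RIP libraries. Over the spermatogonial genes they were 965.3 and 973.1 CPM against 503.5 and 499.9 CPM. Of the Sertoli genes 7 were lower in RIP and 2 higher, and of the spermatogonial genes 6 and 4. By the same test, given below, 38.6% of all genes were lower and 38.7% higher. From the level of a cell type's genes in the input, fewer cells and less RNA per cell cannot be told apart. The differences between RIP and input compare RNA in the precipitate with input RNA, and do not measure cell numbers. Why these marker genes differed between precipitate and input was not tested.

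Messages of the adhesion core were mostly over-represented in the DDX20 precipitate, and the 4 that were lower were integrin alpha chains at low levels. By edgeR (quasi-likelihood fit, Benjamini-Hochberg adjustment across the whole table, adjusted p under 0.05), 25 of the 33 members tested were higher in RIP, 4 were lower and 4 did not pass. Of all 17422 genes 77.3% passed, with 38.7% above input and 38.6% below. A called change of 2-fold or more was found for 19 members upward and 2 downward, against 17.1% and 23.5% of all genes. After the offset for coding length described below, 3 members were at least 2-fold higher and 4 at least 2-fold lower. Over all 14677 protein-coding genes these numbers were 1136 and 1589. Both RIP libraries lay above both input libraries in 27 members and below them in 5, and the groups overlapped in 1, Lims2. Over all genes these shares were 42.7% above and 45.3% below. Members had a median log2 fold change of 1.15, compared with -0.05 for the whole table. Scaling by total counts or by upper quartiles in place of TMM shifted the median of the whole table to -0.40 and -0.39 and that of the members to 0.80 and 0.81. Scaled by total counts, 23 members were higher and 5 lower, beside 4994 and 8845 of all 17422 genes.

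**Figure D1:**
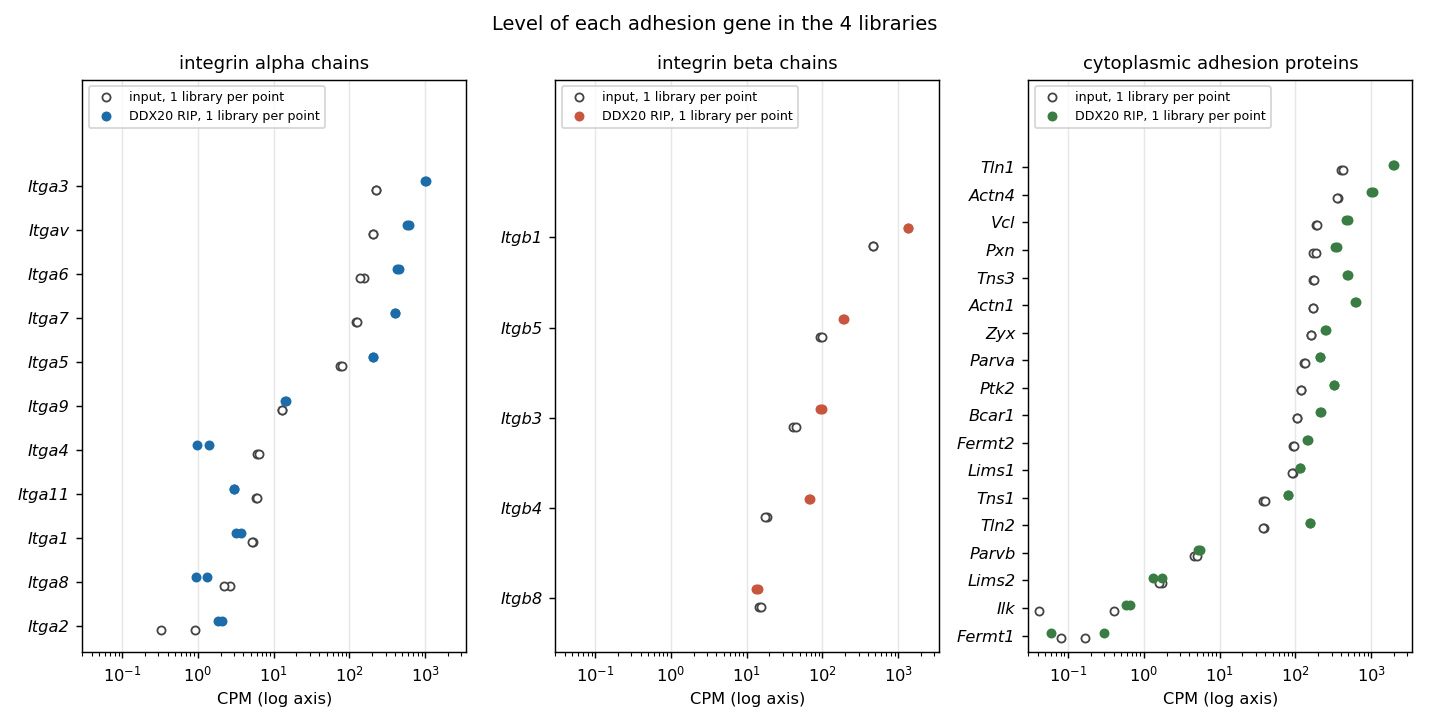
Level of each of the 34 adhesion genes in CPM (log axis), 1 point per library, with open points for the 2 input and filled points for the 2 DDX20 RIP libraries, ordered by input level within each sub-group. The filled points lie to the right of the open ones for every gene above 20 CPM in the input, and to the left for Itga4, Itga11, Itga1, Itga8 and, by a small step, Itgb8.

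Levels between genes were compared per kilobase of annotated exon. In the input Itgb1, the beta chain shared by most matrix receptors, stood highest at 114 CPM per kb, followed by Actn4 (58.03), Tln1 (41.8) and Itga3 (39.7). The lowest values among genes tested were those of Ilk (0.0814) and Itga2 (0.0866). In RIP the order at the top was Itgb1 (329 CPM per kb), Tln1 (201), Itga3 (178) and Actn4 (167). The exon lengths are those of all annotated transcripts together, so genes with long alternative exons are set too low on this scale.

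Of the 11 integrin alpha chains 6 were higher, 4 lower and 1 not called, beside 38.7% and 38.6% of all genes. After the coding length offset described below 5 were higher, 5 lower and 1 not called, beside 44.7% and 29.1% of protein-coding genes. Itga3 encodes the alpha-3 chain, which pairs with beta-1 to bind laminins. It stood at 228 and 225 CPM in input and 1030.5 and 999 CPM in RIP. The RIP libraries lay far above the input without overlap, at a log2 fold change of 2.16 ± 0.0268 (SE, n = 2 libraries per group), or 4.48-fold. Itgav, whose alpha-v chain binds fibronectin and vitronectin, stood at 205 and 204 CPM in input and 615 and 567 CPM in RIP, a log2 fold change of 1.53 ± 0.0323. Both RIP libraries again lay above both input libraries. The alpha-6 and alpha-7 chains, like alpha-3, bind laminins. Itga6 was at 156 and 137 CPM in input and 448 and 423 CPM in RIP, with a log2 fold change of 1.57 ± 0.0395. Its 2 input libraries differed more from each other than those of Itga3 or Itgav, but neither reached the RIP values. Itga7 was at 123 and 127 CPM in input and 402 and 401 CPM in RIP, with a log2 fold change of 1.68 ± 0.0316. Itga5, the alpha chain of the classical fibronectin receptor, rose from 75.3 and 78.6 CPM in the input to 202 and 202 CPM in RIP, a log2 fold change of 1.39 ± 0.0387. Of these 5 genes Itga6 had the weakest edgeR result, an adjusted p of 1.73e-24. The sixth alpha chain called higher, the collagen receptor chain gene Itga2, rested on few reads. It had 8 and 22 input counts and 70 and 63 RIP counts (log2 fold change 1.67 ± 0.388), and moved to 1.11 without input replicate 1 and 2.59 without input replicate 2.

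The 4 alpha chains that fell were at low levels in the input, from 2.43 to 6.29 CPM, and their library values are given because of that result, chosen after the values were seen. Itga4, which pairs with beta-1 or beta-7 and binds fibronectin and the vascular adhesion molecule VCAM1, stood at 6.12 and 6.46 CPM in input and 0.975 and 1.42 CPM in RIP. Both RIP libraries were far below both input libraries, and Itga4 had the most negative log2 fold change of all members, -2.39 ± 0.227 (5.24-fold lower, edgeR adjusted p = 1.72e-11). Of the collagen receptor chains among the members, Itga1 and Itga11 were also lower in RIP, unlike Itga2. Itga11, a receptor chain of fibroblasts, had 5.84 and 6.003 CPM in the input and 2.99 and 3.02 CPM in RIP (log2 fold change -0.98 ± 0.182), and Itga1 had 5.27 and 5.13 CPM and 3.22 and 3.75 CPM (-0.58 ± 0.184). Itga8, whose product binds nephronectin and fibronectin and is found on mesenchymal cells, had 2.67 and 2.19 CPM in the input and 0.946 and 1.33 CPM in RIP (-1.09 ± 0.304). None of the 4 overlapped between groups. The counts behind them ran from 53 to 156 per input library. Itga1 lost its call without RIP replicate 1 (log2 fold change -0.46) and in DESeq2 (-0.55), and Itga8 without input replicate 1 (-0.94). Itga8 was also under 2-fold without RIP replicate 1 (-0.86). Itga9, a receptor chain for tenascin and VCAM1, was not called at 0.16 ± 0.105, with 12.9 and 12.96 CPM against 14.7 and 14.3 CPM. Scaled by total counts or upper quartiles it had the opposite sign, -0.18 in both cases.

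Among markers of other cell types of the testis and its blood, 4 of 9 peritubular and stromal genes were lower in RIP and 2 higher, with summed levels of 2935 and 2941 CPM in the input and 5871 and 5695 CPM in RIP, most of it from Col1a1. Of 7 endothelial genes 4 were lower and 2 higher, at 157.9 and 163.7 CPM against 256.9 and 249.7 CPM. All 5 macrophage genes tested of the 6 listed were lower, at 121.6 and 117.7 CPM against 42.5 and 41.1 CPM for all 6. Ptprc, the pan-leukocyte gene, did not pass the filter on low counts. All 7 Leydig cell genes were lower, at 405.8 and 398.8 CPM against 225.3 and 222.9 CPM, and all 5 red blood cell genes, at 268.5 and 272.0 CPM against 76.2 and 76.8 CPM. Over all genes 38.6% were lower and 38.7% higher. The red blood cell genes have a median coding length of 441 nt. Of protein-coding genes up to 1000 nt 12.9% were higher (median log2 fold change -0.76). All 5 red blood cell genes were also lower after the coding length offset described below. Of 5 platelet genes 3 were tested and Gp1bb had no count in any library. Pf4 had a log2 fold change of -2.36 and Itga2b, the gene of the platelet integrin chain, one of 0.48, at 22.3 and 23.8 CPM against 12.5 and 12.9 CPM for the whole list. Their part in the values of the alpha chains was not tested.

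**Figure D2:**
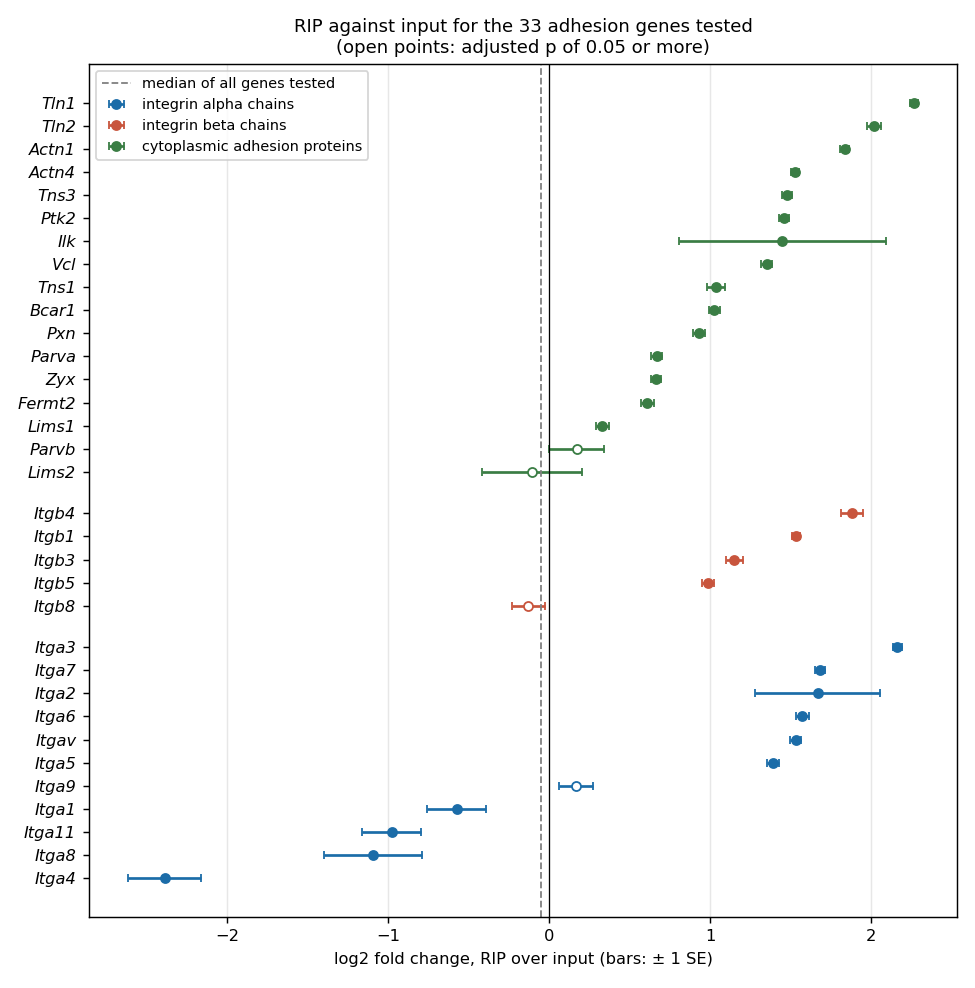
Log2 fold change of RIP over input for the 33 adhesion genes tested, with bars of 1 SE to each side, filled where the adjusted p was under 0.05. Tln1 is the highest at 2.27 and Itga4 the lowest at -2.39, and 4 of the 11 alpha chains are filled points left of 0.

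Of the 5 beta chains 4 rose and none fell, beside 38.7% and 38.6% of all genes. After the coding length offset 4 were higher and 1 lower, beside 44.7% and 29.1% of protein-coding genes. Itgb1 was the most abundant integrin gene, with 467 and 462 CPM in input and 1341 and 1348 CPM in RIP. The 2 libraries of each group differed little, and the log2 fold change was 1.53 ± 0.0237 (2.89-fold). Itgb4, which pairs with alpha-6 in the hemidesmosomes of epithelia and has a far longer cytoplasmic tail than other beta chains, rose most. It was at 18.8 and 17.6 CPM in input and 67.6 and 66.5 CPM in RIP, a log2 fold change of 1.88 ± 0.068. Itgb3, a partner of alpha-v, was at 40.97 and 45.2 CPM in input and 97.9 and 93.4 CPM in RIP (1.15 ± 0.0536). Itgb5, another partner of alpha-v, was at 93.99 and 97.9 CPM in input and 192 and 188 CPM in RIP, and the difference was just under 2-fold (0.99 ± 0.0378). Itgb8, whose receptor with alpha-v releases active TGF-beta, was not called. It was at 14.7 and 15.3 CPM in input and 13.4 and 13.98 CPM in RIP, and both RIP libraries lay slightly below both input libraries (-0.13 ± 0.103). With total counts or upper-quartile scaling it fell to -0.48 and -0.47, and passed the test. Against Itgb1, Itgav stood at 0.439 and 0.442 times in the input and 0.459 and 0.421 times in RIP, and these ratios overlapped between groups. The ratio of Itgb5 to Itgb1 was 0.201 and 0.212 in the input and 0.143 and 0.140 in RIP, without overlap.

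Among the cytoplasmic proteins 15 of 17 tested rose, none fell and 2 were not called, beside 38.7% and 38.6% of all genes. After the coding length offset 15 were higher and 1 lower, beside 44.7% and 29.1% of protein-coding genes. The talins, which bind the beta tail and unfold under load, had the largest values. Tln1 was at 399 and 420.1 CPM in input and 2007 and 1931 CPM in RIP. It had the highest log2 fold change of all members, 2.27 ± 0.0262, or 4.81-fold, with an edgeR adjusted p of 5.14e-37. Tln2, the less abundant talin, was at 38.7 and 37.5 CPM in input and 155 and 154 CPM in RIP (2.02 ± 0.0456). The groups stood far apart for both talins. Of the kindlins, which join talin at the beta tail, only Fermt2 was tested, and it rose less, by a log2 fold change of 0.61 ± 0.0392.

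The linkers to actin followed. Vcl, which encodes vinculin, was at 185 and 194 CPM in input and 500.1 and 466 CPM in RIP, a log2 fold change of 1.35 ± 0.0327. Of the 2 non-muscle alpha-actinins, which crosslink actin filaments, Actn4 was the more abundant and Actn1 rose more. Actn4 was at 361 and 350.3 CPM in input and 1044 and 1005 CPM in RIP (1.53 ± 0.0263), and Actn1 was at 173 and 171 CPM in input and 623 and 607 CPM in RIP (1.84 ± 0.0286). In neither gene did the groups overlap. The tensins bind the beta tail and actin in long-lived adhesions. Tns3 was at 171 and 176 CPM in input and 496 and 472 CPM in RIP (1.48 ± 0.0309) and Tns1 at 37.3 and 39.8 CPM in input and 79.1 and 78.8 CPM in RIP (1.03 ± 0.0556). Zyx, whose product zyxin gathers at stretched actin bundles, rose by 0.66 ± 0.0328.

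Signalling proteins of the adhesion rose by about 2- to 3-fold. Ptk2, which encodes focal adhesion kinase, was at 117 and 118 CPM in input and 326 and 321 CPM in RIP, a log2 fold change of 1.46 ± 0.0328. Bcar1, the gene of the docking protein p130Cas, was at 104 and 104 CPM in input and 217 and 209 CPM in RIP (1.03 ± 0.0364). The scaffold gene Pxn, which encodes paxillin, rose by 0.93 ± 0.0356, and its libraries did not overlap either.

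Genes of the ILK, PINCH and parvin complex rose little or rested on few counts. Parva, which encodes alpha-parvin, rose by a log2 fold change of 0.67 ± 0.0348 and Lims1, which encodes PINCH-1, by 0.33 ± 0.0413. Scaled by total counts or upper quartiles Lims1 stood at -0.02 and -0.01, and neither passed the test. The second members of both families were rare and were not called, with Parvb at 0.17 ± 0.169 and Lims2 at -0.11 ± 0.31. Parvb stood at -0.18 and -0.17 with those 2 scalings, and was called higher after the coding length offset described below (0.41, edgeR adjusted p = 0.0332). For the kinase itself the counts say little. Ilk had 10 and 1 input counts and 20 and 22 RIP counts, a log2 fold change of 1.45 ± 0.644 (edgeR adjusted p = 0.0412). It moved to 3.79 without input replicate 1 and lost its call without input replicate 2 (0.61), with either of those scalings (1.10 and 1.11) and in DESeq2 (1.49). In the annotation 76.7% of the exon bases of Ilk also lie in exons of Taf10 on the opposite strand and 12.9% in those of Rrp8. The library kit does not mark strand, and how reads shared by 2 genes were treated is not stated. Taf10, which encodes a subunit of the transcription factor TFIID, stood at 186.9 ± 6.28 CPM in the input and 72.5 ± 1.55 CPM in RIP (mean ± SD, n = 2). Among the other members 25.5% of Vcl exon bases lie in exons of Ap3m1 on the opposite strand, and no other member shared more than 8.04% with another gene, the value of Itga4 with Cerkl.

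Close relatives were compared as the ratio of their CPM within each library. Tln1 stood at 10.3 and 11.2 times Tln2 in the input and at 12.95 and 12.5 times in RIP. The ratio of Actn1 to Actn4 was 0.479 and 0.489 in the input and 0.596 and 0.604 in RIP, and that of Tns3 to Tns1 was 4.60 and 4.43 against 6.27 and 5.997. Parva stood at 28.9 and 27.2 times Parvb in the input and 37.97 and 41.3 times in RIP, and Lims1 at 53.6 and 57.1 times Lims2 against 86.7 and 65.9 times. The order within the pairs follows neither level nor gene number throughout, so it is no result that all 5 ratios rose. None of the 5 ratios overlapped between groups. With 2 libraries per group, however, an exact permutation test cannot go below a two-sided p of 0.333. Lims2 had only 43 and 38 input counts and 45 and 59 RIP counts. The coding lengths of Tln1 and Tln2 are almost equal, at 7623 and 7626 nt, and those of Actn1 and Actn4 are close, at 2676 and 2736 nt.

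Coordinates and gene structure are those of GRCm38 in GENCODE release M21. Itga3 (ENSMUSG00000001507.17) lies on chromosome 11 from 95044474 to 95076801, Itga4 (ENSMUSG00000027009.19) on chromosome 2 from 79255426 to 79333123, Itgb1 (ENSMUSG00000025809.16) on chromosome 8 from 128685654 to 128733200 and Tln1 (ENSMUSG00000028465.17) on chromosome 4 from 43531519 to 43562691. Ilk (ENSMUSG00000030890.17) lies on chromosome 7 from 105736592 to 105742925.

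Longer coding sequences went with higher log2 fold changes among the cytoplasmic proteins, while the alpha chains spread widely at nearly 1 length. Over the 17 cytoplasmic genes tested, Spearman's rho between coding length and log2 fold change was 0.816, from Lims2 at 1023 nt to the talins. Over all 14677 protein-coding genes tested it was 0.637. The 11 alpha chains run only from 3096 to 3564 nt, with a rho of 0.132, and their log2 fold changes ran from -2.39 to 2.16. Over all 33 members it was 0.433. The length of the 3′ UTR went the other way in the members (rho -0.335) than in all protein-coding genes (0.266). Within the alpha chains this rho was -0.5, and within the cytoplasmic genes tested it was 0.049. The 3 members with the longest 3′ UTR, Itga1 (6994 nt), Itga4 (6508 nt) and Itgb8 (5095 nt), had log2 fold changes of -0.58, -2.39 and -0.13. The next longest, Tln2 (4303 nt) and Tns1 (4298 nt), stood at 2.02 and 1.03. Itga11, which fell like Itga1 and Itga4, has a 3′ UTR of 1283 nt, close to that of Itga3 (1321 nt). These correlations are across genes measured in the same 4 libraries, and genes are not independent replicates.

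**Figure D3:**
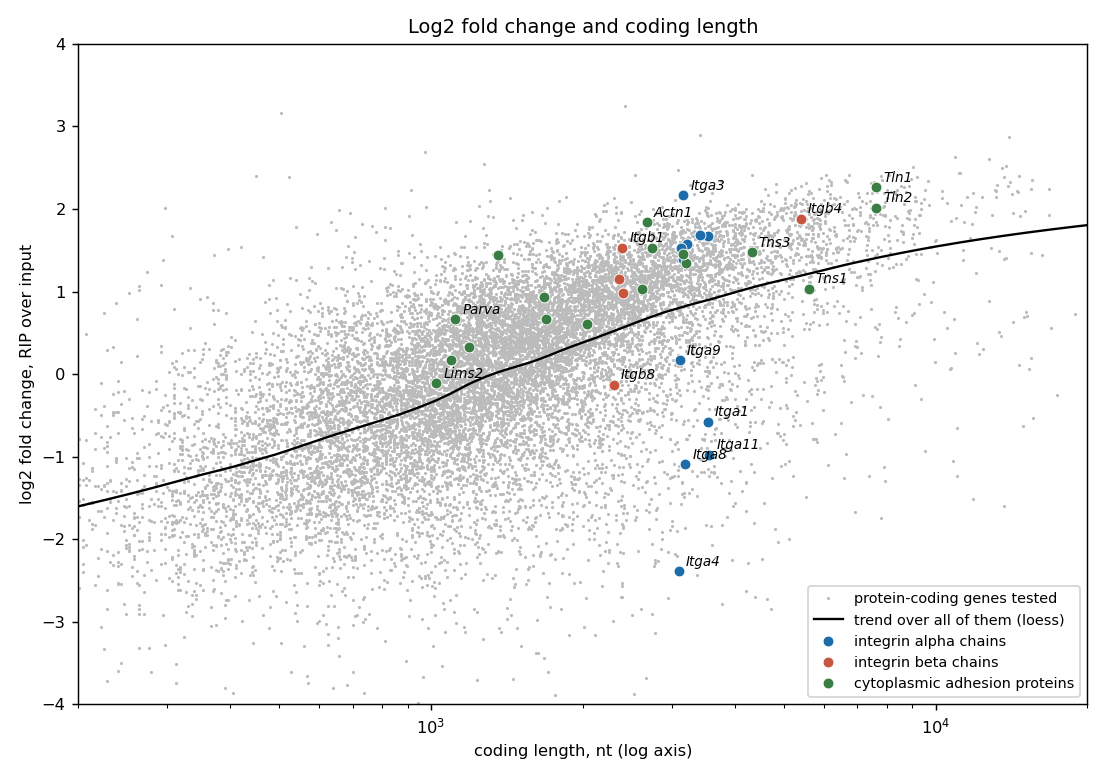
Log2 fold change of RIP over input against coding length in nt (log axis) for the protein-coding genes tested (grey), with the loess trend over them (black line) and the adhesion genes coloured by sub-group. The cytoplasmic genes climb along the cloud from Lims2 to Tln1, whereas the alpha chains stand in 1 column near 3000 nt that runs from -2.39 to 2.16.

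Values were also read by level and length. The split by level, at a mean of 20 CPM over the 4 libraries, was chosen after the values were seen, and the RIP values enter that mean, so a gene high in RIP passes it more easily and the counts in each class are a description only. Of the 23 members at or above it, all were higher in RIP, as were 61.4% of 8030 genes there. Itgb4 passed only through its RIP libraries, while the other 22 also had a mean of at least 20 CPM in the input. Of the 10 members below it 2 were higher and 4 lower, against 19.2% and 44.6% of 9392 genes. Among the 628 genes above that level with coding lengths over 3000 and up to 4000 nt, 98.6% were higher and the median log2 fold change was 1.33. The 7 members there, 5 alpha chains with Vcl and Ptk2, had a median of 1.53. Of 1312 genes with over 2000 and up to 3000 nt 95.0% were higher (median 1.03), beside a median of 1.15 for the 7 members there. For over 1000 and up to 2000 nt the share was 67.4% of 2812 genes (median 0.41), and Pxn, Zyx, Parva and Lims1, all higher, had a median of 0.67. Tns3, at over 4000 and up to 5000 nt, stood at 1.48 beside a median of 1.49 for 266 genes (97.4% higher). For over 5000 and up to 7000 nt Tns1 and Itgb4 had a median of 1.46, beside 1.70 for 271 genes (98.2% higher). The talins, over 7000 nt, had a median of 2.14 beside 1.93 for 176 genes (98.9% higher). Below that level directions were mixed. Of 338 genes with over 3000 and up to 4000 nt 45.6% were higher and 19.5% lower (median 0.35). The 6 alpha chains in that class were the 4 that fell, Itga2 (1.67) and Itga9 (0.16). Ilk, called higher, stood in a class of 2793 genes of which 23.8% were higher.

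An offset for the trend with coding length made the differences smaller and left most members higher. The median of the members fell from 1.15 to 0.58, and those at least 2-fold higher went from 19 to 3. Of the 14677 protein-coding genes, those at least 2-fold higher went from 2763 to 1136. After the offset 24 of 33 members were higher and 7 lower, against 44.7% and 29.1% of 14677 genes. Itga2 no longer passed (0.78 ± 0.401), and Parvb now did. The largest values were then those of Ilk (1.43 ± 0.633), Itga3 (1.35 ± 0.0264), Actn1 (1.16 ± 0.0287) and Itgb1 (0.97 ± 0.0235). Tln1, highest without the offset, stood at 0.86 ± 0.0244. Tns1, with a coding length of 5601 nt, turned from 1.03 to -0.18 ± 0.0569, while its relative Tns3 stood at 0.43. The 4 falling alpha chains were lower still, from -3.19 for Itga4 to -1.47 for Itga1, and were joined by Itga9 (-0.64) and Itgb8 (-0.65). The trend is a mean that genes at low levels pull down, and the median of all genes after it was 0.13. In an offset fitted only among genes with a mean of at least 20 CPM, chosen after seeing the data and with the same filter on level, 18 of the 23 members there were higher and 2 lower, against 44.2% and 39.3% of 7889 genes. The 2 lower ones were Tns1 (-0.55) and Fermt2 (-0.17). Itga3 (0.96), Actn1 (0.77), Parva (0.62), Itgb1 (0.57) and Tln1 (0.50) were the 5 highest.

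**Figure D4:**
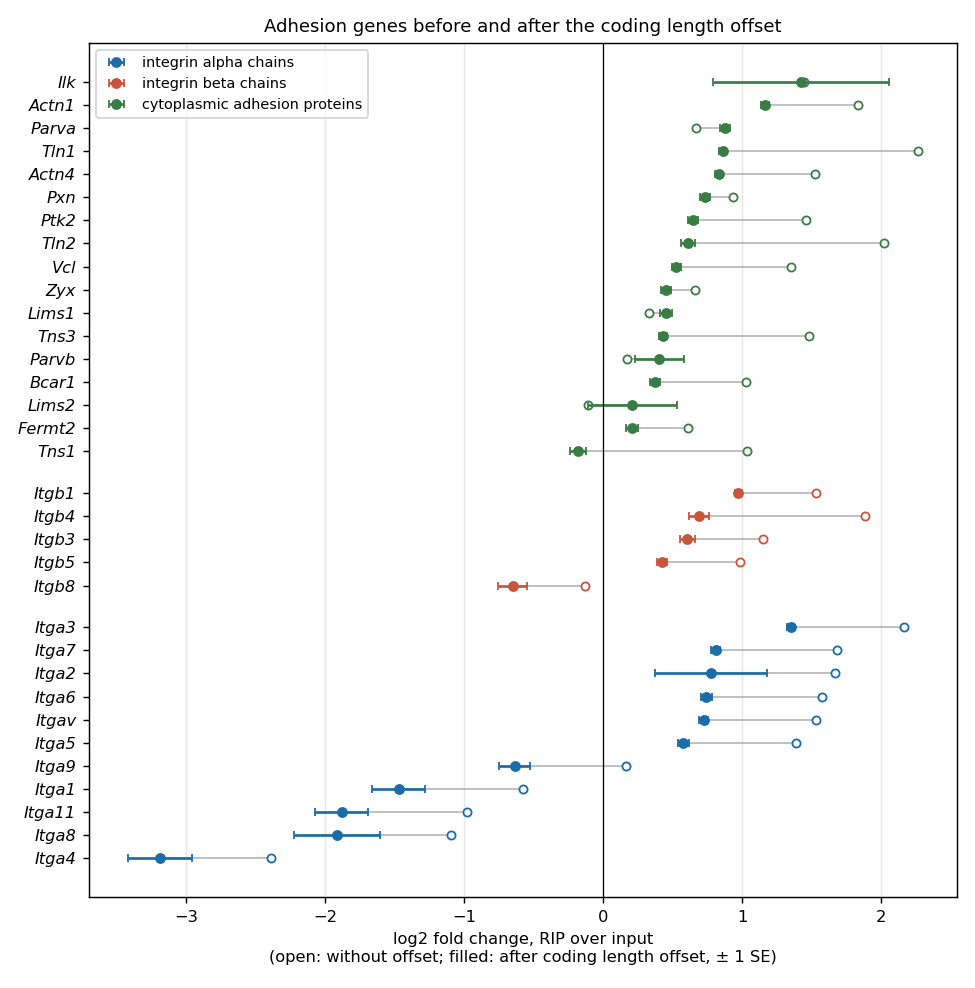
Log2 fold change of RIP over input for the 33 adhesion genes tested without an offset (open points) and after the coding length offset (filled points, bars of 1 SE to each side). The offset moves most genes to the left, among them Tln1 from 2.27 to 0.86, and leaves Itga3 at 1.35 and Itga4 at -3.19.

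Genes around the core were taken from 3 lists. Of 24 further members of the same families 18 were tested, of which 9 were higher and 5 lower (median log2 fold change 0.41). Of all genes 38.7% were higher and 38.6% lower. After the coding length offset 6 of this list were higher and 7 lower, with a median of -0.20. The shares of protein-coding genes were then 44.7% and 29.1%. Lpp, a zyxin relative, rose from 115 ± 2.48 to 372 ± 12.02 CPM (mean ± SD, n = 2), and Tns2, another tensin, from 72.3 ± 2.36 to 252 ± 6.19 CPM. Trip6, another zyxin relative, fell by a smaller amount, to a log2 fold change of -0.33 ± 0.0455, and Actn2, the alpha-actinin of striated muscle, fell from 19.3 ± 2.03 to 7.83 ± 0.543 CPM. Of 54 adaptors and regulators of adhesion all were tested, and 43 were higher and 8 lower (median 0.69). With total counts 34 were higher and 16 lower, beside 4994 and 8845 of all 17422 genes. After the coding length offset the numbers were 41 and 7. Myh9, the heavy chain of non-muscle myosin that pulls on adhesions, rose from 1365 ± 0.667 to 6444 ± 294 CPM, and Flna, an actin crosslinker that binds beta tails, from 933 ± 25.4 to 4251 ± 128 CPM. The small GTPase gene Rhoa, which switches myosin on, fell from 322 ± 5.01 to 228 ± 7.08 CPM, and Csrp1, a LIM protein gene, from 367 ± 3.996 to 298 ± 7.70 CPM. Rhoa and Csrp1 have short coding sequences (579 and 579 nt), and after the coding length offset both were higher, at 0.33 and 0.53.

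Of 25 matrix ligands of integrins 19 were higher and 6 lower (median 1.23 on the log2 scale). Fn1, the ligand of alpha-5 and alpha-v receptors, had a log2 fold change of 2.01 ± 0.0204 and Col1a1, a ligand of collagen receptors, 1.59 ± 0.0214. Col3a1 (-0.58 ± 0.0269) and Lama2 (-0.30 ± 0.0554) were lower, and Lama2 lost its call without input replicate 2 (-0.25). Over all genes the shares were 38.7% and 38.6%. After the coding length offset 15 ligands were higher and 9 lower, beside 44.7% and 29.1% of all protein-coding genes.

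**Figure D5:**
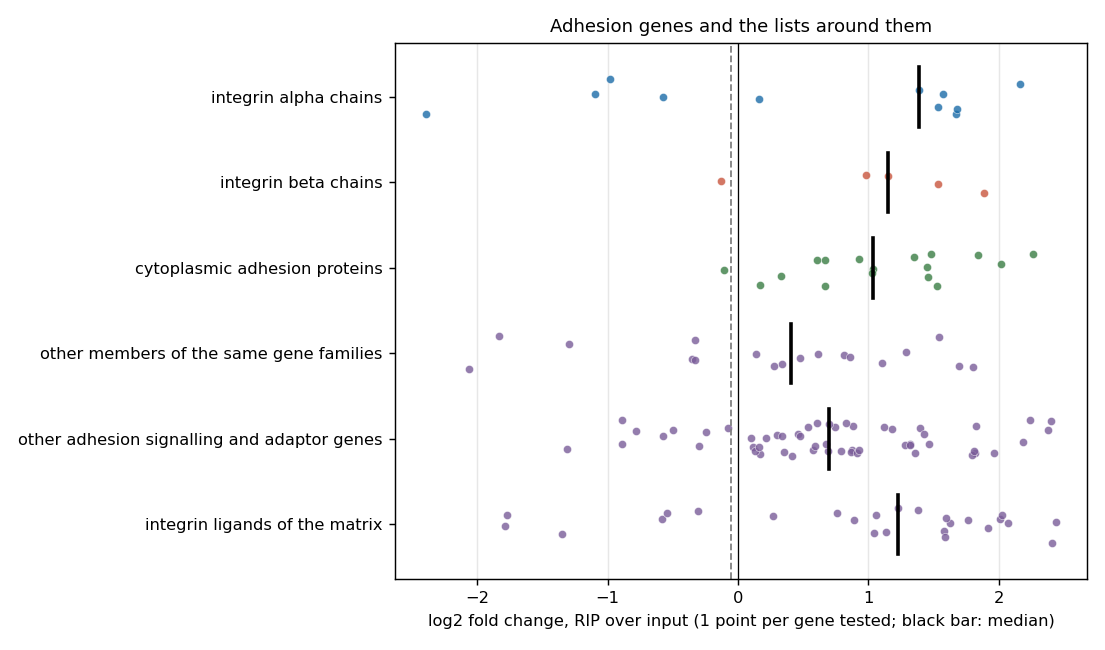
Log2 fold change of RIP over input for each gene tested in the 3 sub-groups of the adhesion core and the 3 lists around it, with 1 point per gene and a black bar at the median. The dashed line marks the median of all genes tested, -0.05, and the medians of the 6 sets lie from 0.41 to 1.39, all to the right of it.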

How the data were processed

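The authors deposited raw read counts per gene, 1 column per library, for 2 input and 2 DDX20 RIP libraries read as 150-nt pairs. The submitters' processing notes name GRCm38, the aligner STAR (2.7.2b), the trimmers cutadapt (4.1) and Trimmomatic (0.36), featureCounts and SAMtools; their order, settings and the annotation release are not given here. Between 65.4% and 67.4% of nonzero counts were even, as when each mate of a pair counts separately, so the depth behind a value is overstated. Symbols and lengths came from GENCODE M21, which names 94.1% of identifiers; none of the 34 members carries the same version number there, so gene models can differ. Coding and UTR lengths are those of 1 transcript per gene (best APPRIS rank, then longest coding sequence).

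Genes were kept by filterByExpr, scaled by TMM (factors 1.13, 1.13, 0.880 and 0.892) and tested with edgeR 4.0.16 (robust quasi-likelihood) in R 4.3.3. Benjamini-Hochberg adjustment ran over every gene tested. A standard error is the log2 fold change divided by the root of the F statistic. The length offset is a loess (span 0.3) of log2 fold change on log2 coding length. The fit was tested on simulated data. Replicates differed by 1.19 (input) and 1.15 (RIP) times counting noise (median chi-square of halved counts) and were kept as separate samples. The members and lists were chosen with earlier results of these data known; library values were given for members with an absolute log2 fold change of at least 1 and a mean of at least 10 CPM and for the 2 most abundant of each sub-group, and 2 called genes per direction were named in each further list. DESeq2 1.42.0 and limma-voom 3.58.1 were alternatives, with other scalings and filters, halved counts, a replicate block, leaving out each library, and length offsets.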

Additional observations from a re-analysis of the deposited data

How the results depend on the processing

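Leaving aside the length offsets, 25 of the 33 members kept their direction and their side of the threshold in 13 settings, and Itga1, Itga8, Itga9, Itgb8, Ilk, Parvb, Lims1 and Lims2 did not. No effect shared by libraries of the same replicate number was seen (correlation of their deviations 0.00523 over 9828 genes). Replicates differed little beyond counting noise, so this cannot tell whether such libraries came from the same lysate. With a replicate block 25 members were higher and 4 lower, as without it. Leaving out single libraries gave 1 to 2 members at least 2-fold lower and a member median log2 fold change of 1.08 to 1.19, and Lims2 ran from -0.317 to 0.078, the latter without RIP replicate 1.

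Under total counts and upper-quartile scaling the median of all genes was -0.40 and -0.39 and that of the members 0.80 and 0.81. Genes at least 2-fold higher numbered 1567 and 1590, and 1 beta chain was lower. Of the 54 adhesion adaptors 16 and 15 were lower and 34 and 34 higher. Of all 17422 genes 8845 and 8798 were lower and 4994 and 5022 higher. Itga9 was then at -0.18 and -0.18, Parvb at -0.18 and -0.17 and Lims1 at -0.019 and -0.012. Without a low count filter the median of all genes was -0.37, and with at least 1 CPM in 2 libraries that of the members was 1.01. The cause was not tested.

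With the coding length offset, and the same with the replicate block, 4275 and 4243 genes were lower, 1136 and 1134 at least 2-fold higher and 1589 and 1567 at least 2-fold lower, and the median of all genes was 0.13 and 0.13. In both, 7 members were lower, 3 at least 2-fold higher and 4 at least 2-fold lower, with a median of 0.58, and 1 beta chain and 1 cytoplasmic gene were lower. Itga9 was at -0.64, Tns1 at -0.18, Rhoa at 0.33 and Csrp1 at 0.53 in both, and Lims2 at 0.21 and 0.20. With the offset among genes of a mean of at least 20 CPM, which tests fewer genes, 3490 were higher, 3097 lower, 307 at least 2-fold higher and 387 at least 2-fold lower (median 0.036). Of the members 2 were lower, both cytoplasmic, 0 alpha chains were lower, and 0 were at least 2-fold higher and 0 at least 2-fold lower (median 0.25). Of the family list 4 were higher and 2 lower, of the adaptors 28 and 12, and of the ligands 12 and 9. Over all 7889 genes in that fit the shares were 44.2% and 39.3%. Fermt2 was at -0.17, Tns1 at -0.55, Bcar1 at -0.022, Rhoa at 0.20 and Csrp1 at 0.40. The offset removes what coding length shares with the fold change.

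With 2 libraries per group and no precipitation with another antibody, differences are those between these libraries. Members with few counts, among them Itga2, Itga8, Ilk and Lims2, carry the largest standard errors, and a small difference in them was not detectable at this depth.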
